A study of Homo sapiens with 2 samples.

Results

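AP-1 is a family of dimeric bZIP transcription factors that relay growth factor and stress signals to transcription. Its 9 genes examined here are the JUN genes (JUN, JUNB and JUND), the FOS genes (FOS, FOSB, FOSL1 and FOSL2) and the related ATF3 and BATF3. The list was set by family membership, with earlier results of these data known. NRF1 peaks were assigned to a gene when the peak centre lay within 50 kb of any of its annotated transcription start sites (TSSs). A peak that the authors' annotation listed for the gene was assigned to it as well. Of 5683 peaks in all, 6 met either condition, and they belonged to 4 of the 9 genes. FOSL1 and FOSL2 had 2 peaks each, and JUN and FOSB had 1 each. JUNB, JUND, FOS, ATF3 and BATF3 had none. Of all 20163 protein-coding genes, 32.7% had a peak within 50 kb of a TSS. In that window 6.28% of genes had 2 peaks and 2.39% had 3 or more.

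The peaks come from 1 ChIP library of HCT116, a human colorectal carcinoma line, in which NRF1 was immunoprecipitated after 16 h in 1 µM MG132, a peptide aldehyde that blocks the proteasome. The other sample of the series, an input from cells under the same treatment, was not analysed here. There is no untreated group and no replicate, so no value has a replicate error and no difference between peaks was tested.

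NRF1 (NFE2L1) belongs to the CNC branch of the bZIP factors, stays anchored in the endoplasmic reticulum in unstressed cells, and reaches the nucleus when the proteasome is inhibited. There it pairs with small MAF proteins and binds the antioxidant response element (ARE). JUN-FOS dimers bind a shorter palindrome, and the form of the ARE called full below contains that palindrome followed by a GC. The 2 motifs can therefore overlap in sequence, and a peak can hold the palindrome inside an ARE or on its own.

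In the searches, an ARE was TGAGNNNGC or TGACNNNGC on either strand, a full ARE was TGAGTCAGC or TGACTCAGC, and the AP-1 palindrome was TGAGTCA, whose reverse complement is TGACTCA. Every full ARE thus contains the palindrome. An ARE that is not full is called degenerate.

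The following sequences show 1 motif from each of the 6 peaks, read 5′ to 3′ from hg19 with the match in capitals. They are the full ARE nearest to the peak centre where there was one, the degenerate ARE nearest to it at FOSB, and the palindrome where no ARE was found.
FOSL1, intron 1, chr11:65666857-65666865, plus strand: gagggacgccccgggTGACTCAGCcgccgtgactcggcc
FOSL1, upstream, chr11:65683384-65683392, minus strand: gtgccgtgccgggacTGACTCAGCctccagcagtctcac
FOSL2, downstream, chr2:28656991-28656999, plus strand: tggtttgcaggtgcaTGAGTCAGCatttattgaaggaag
FOSB, downstream, chr19:45981738-45981746, plus strand: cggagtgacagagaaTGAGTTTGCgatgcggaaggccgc
JUN, downstream, chr1:59219907-59219913, plus strand: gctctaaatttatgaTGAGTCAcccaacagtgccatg
FOSL2, upstream, chr2:28565485-28565491, plus strand: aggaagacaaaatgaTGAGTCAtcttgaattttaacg

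In these 6 peaks, both FOSL1 peaks and the downstream FOSL2 peak held a full ARE. The FOSB peak held only degenerate AREs, and the JUN and upstream FOSL2 peaks held the palindrome alone. Over all 5673 peaks searched, 61.3% held a full ARE, 26.1% degenerate AREs only and 5.55% the palindrome alone. With ARE positions counted from 1 at the T of TGA, the palindrome at JUN departed from the ARE by G8C on the plus strand and by G8T on the minus strand. The palindrome upstream of FOSL2 departed by G8T on both strands. Each of these palindromes was thus 1 base short of a full ARE.

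**Figure D1:**
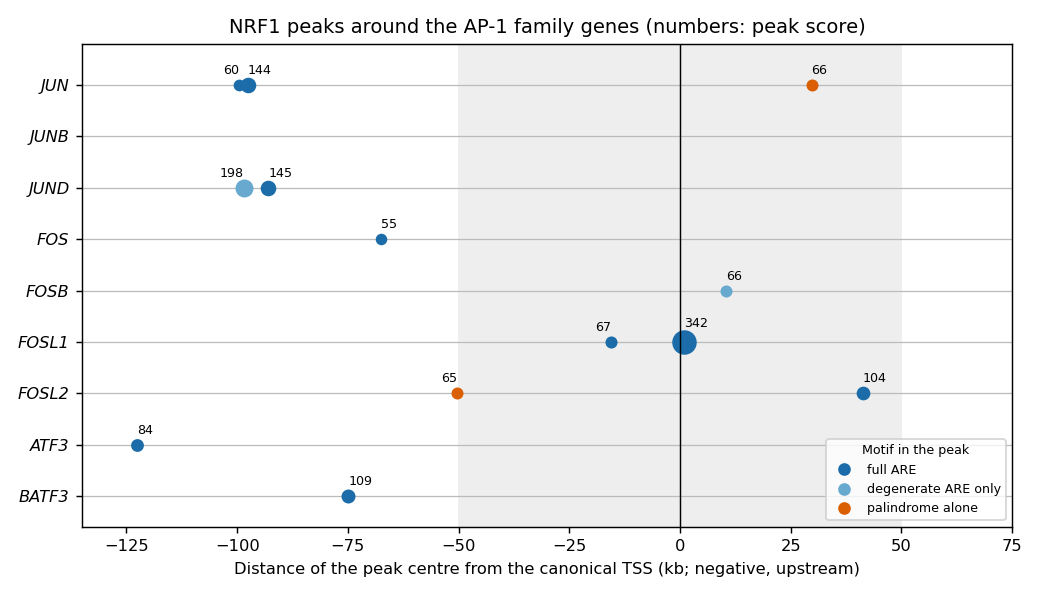
NRF1 peaks around the 9 AP-1 family genes, by distance of the peak centre from the canonical TSS in kb (negative, upstream). Each point is a peak, coloured by its motif and sized and labelled by its score, for all peaks within 100 kb of any TSS of the gene; the grey band marks 50 kb on each side of the canonical TSS. FOSL1 is the only gene with a peak next to its TSS, and 5 genes have no peak in the band.

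FOSL1, which encodes the FOS-related protein FRA-1, had the strongest peak of the family. The gene occupies positions 65659520 to 65668044 of chromosome 11 in hg19, on the minus strand, and the peak ran from 65666551 to 65667197, centred 985 bp downstream of the canonical TSS in intron 1 of 3. Its score, the −log10 p-value of MACS multiplied by 10, was 342.26, and the authors' annotation also lists it for this gene. That put it at rank 312 of all 5683 peaks, above 94.5% of them. Among the 1122 peaks within 2 kb of a protein-coding TSS it ranked 115. Among the 3478 peaks with a full ARE it ranked 230.

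By GENCODE TSSs, FOSL1 was the only member of the family with a peak within 2 kb, the window the study used for candidate targets. The authors' annotation lists a peak for FOSB too, which lay 7347 bp from the nearest GENCODE TSS of that gene. One gene of 9 compares with 6.03% of all 20163 protein-coding genes (1215 genes, 95% Wilson interval 5.71 to 6.36%).

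The centre of the FOSL1 intron peak held an array of closely spaced AREs, shown here in capitals over 300 bases of chr11:65666725-65667024, plus strand, because their spacing is the feature of this peak.
FOSL1, intron 1: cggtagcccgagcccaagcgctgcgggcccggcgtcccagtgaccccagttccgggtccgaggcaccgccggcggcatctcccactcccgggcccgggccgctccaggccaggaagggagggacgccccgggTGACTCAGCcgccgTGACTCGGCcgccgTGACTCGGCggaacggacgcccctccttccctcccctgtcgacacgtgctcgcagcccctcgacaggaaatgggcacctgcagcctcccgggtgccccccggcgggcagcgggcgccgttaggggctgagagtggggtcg
The full ARE TGACTCAGC was followed by 2 copies of TGACTCGGC on the same strand, each starting 14 bp after the match before it. These 3 matches lay 13, 1 and 15 bp from the peak centre, and 1 more match, TGACCCCGC, lay 173 bp from it. Over all 5673 peaks searched, TGACTCGGC was found in 95 (1.67%) and at least 2 copies in 3. The FOSL1 intron peak was the only one with 3 AREs on 1 strand at steps of 14 bp; this spacing was looked for after the sequence had been seen.

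The other FOSL1 peak, from 65683128 to 65683586, was centred 15498 bp upstream of the canonical TSS. Its score was 67.20, rank 4147, close to the lower quartile of all peaks (65.36). It lay outside annotated genes, and the nearest protein-coding TSS was not that of FOSL1 but that of C11orf68, 2474 bp away. It held 4 AREs, of which 2 were full, 51 and 31 bp from the centre and on opposite strands. The intron peak, with 1 full ARE, had the higher score of the pair.

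**Figure D2:**
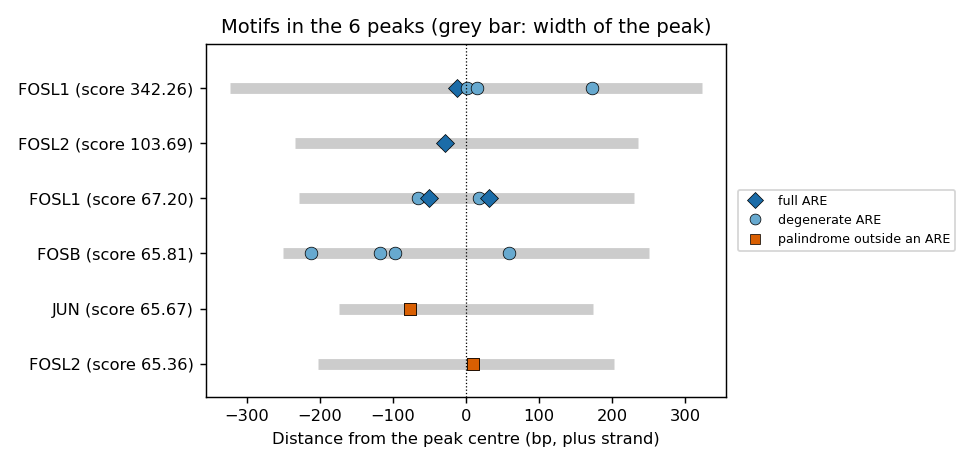
Positions of the motifs in the 6 peaks, as distance from the peak centre in bp along the plus strand, with each peak drawn as a grey bar of its own width and ordered by score. The FOSL1 intron peak has 3 AREs at its centre, and the JUN and lower FOSL2 peaks show 1 palindrome each and no ARE.

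FOSL2, which encodes FRA-2 and occupies positions 28615315 to 28640184 of chromosome 2 on the plus strand, was flanked by a peak on each side. The downstream peak, from 28656790 to 28657259, had a score of 103.69 (rank 2412) against a median of 91.86 over all peaks. It was centred 41299 bp downstream of the canonical TSS, outside annotated genes, and the nearest protein-coding TSS was that of PLB1, 22988 bp away. Its single ARE was full and lay 29.5 bp from the centre, which equals the median distance of the nearest full ARE over the 3478 peaks that hold one.

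The upstream FOSL2 peak, from 28565276 to 28565681, had a score of 65.36 (rank 4259). Its centre was 49837 bp from the most upstream annotated TSS of the gene and 50247 bp from the canonical TSS, so that it met the 50 kb limit by the upstream start alone. It was the member peak closest to that limit, and the first peak beyond it was at FOS, 67526 bp from a TSS. FOSL2 was nonetheless the protein-coding gene with the nearest TSS. The palindrome lay 9.5 bp from the centre of the peak.

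JUN encodes c-Jun, the central partner of AP-1 dimers, at positions 59242517 to 59249720 of chromosome 1 on the minus strand. Its peak ran from 59219814 to 59220161, 29732 bp downstream of the TSS, in an intron of a long noncoding RNA gene that carries no symbol. The score was 65.67 (rank 4236), and JUN had the nearest protein-coding TSS. This peak was 348 bp wide, against a median of 501 bp over all peaks, and its palindrome lay 77.5 bp from the centre. Over the 315 peaks with the palindrome and no ARE, the median of that distance was 32.0 bp, with an upper quartile of 65.5 bp.

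FOSB, whose protein pairs with JUN proteins, occupies positions 45971253 to 45978437 of chromosome 19 on the plus strand. Its peak ran from 45981434 to 45981934 and was centred 10430 bp downstream of the canonical TSS, with a score of 65.81 (rank 4231). The authors' annotation lists this peak for FOSB, but by the GENCODE starts the nearest protein-coding TSS was an alternative start of ERCC1, a DNA repair gene, 402 bp away. The peak held 4 degenerate AREs, at 213, 118, 98 and 58 bp from the centre, and neither a full ARE nor the palindrome. Over the 1480 peaks with degenerate AREs only, the median distance of the nearest one was 34.5 bp, with an upper quartile of 72.0 bp.

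**Figure D3:**
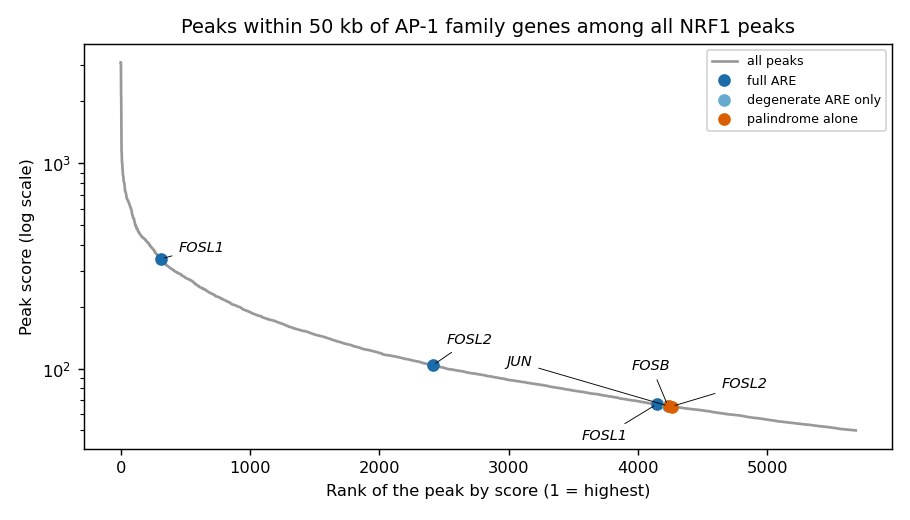
Score of every NRF1 peak (log scale) by rank, with the 6 peaks near AP-1 family genes marked and coloured by motif. The FOSL1 intron peak stands at rank 312, while 4 peaks lie together between ranks 4147 and 4259, where the FOSB point is partly hidden.

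The scores of the 6 peaks ranged from 65.36 to 342.26 with a median of 66.5, against 91.86 over all peaks. Of the 6, the peaks at FOSB and JUN, the upstream FOSL1 peak and the upstream FOSL2 peak lay between 65.36 and 67.20, so that the family median falls on weak peaks and does not describe the FOSL1 intron peak. Within these 6 peaks, the score also did not follow the number of AREs. The FOSL1 intron peak, the FOSL1 upstream peak and the FOSB peak each held 4, at scores of 342.26, 67.20 and 65.81. Over all 5673 peaks searched, 2.94% held 4 or more AREs, a share not adjusted for peak width or base composition. Whether score follows the number of AREs over all peaks was not tested.

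An ARE was present in 4 of the 6 peaks, beside 87.4% of all peaks (95% Wilson interval 86.5 to 88.2%) and 32.4% of flanks of the same length. A full ARE was present in 3 of the 6 peaks, beside 61.3% of all peaks (60.0 to 62.6%) and 1.25% of flanks. Degenerate AREs with no full ARE, as in the FOSB peak, were found in 26.1% of all peaks and 31.1% of flanks. This class leaves out sequences with a full ARE, which were most of the peaks and few of the flanks. These 2 shares therefore do not show how common degenerate AREs are where a full ARE is lacking. The palindrome with no ARE was present in the other 2, beside 5.55% of all peaks (4.99 to 6.18%) and 4.83% of flanks. Far fewer peaks than flanks lacked an ARE, and of those that did, 315 of 715 peaks (44.1%, 40.5 to 47.7%) and 274 of 3834 flanks (7.15%, 6.37 to 8.01%) held the palindrome. The median score of this class was 75.95, against 103.43 for peaks with a full ARE. Within the 315 peaks of the class, the JUN peak ranked 198 and the FOSL2 peak 201. A count of 6 peaks is too small to read a share from, and whether AP-1 proteins themselves occupied these sites was not tested.

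The base before the ARE also varied among the members. CNC-small MAF dimers are known to favour an A or a G at this place, and over the 3478 peaks with a full ARE it was A in 61.3%, G in 30.2%, C in 7.56% and T in 0.978%. It was G at the full ARE of the FOSL1 intron peak and A at that of the downstream FOSL2 peak. In the upstream FOSL1 peak, one full ARE followed an A and the other a C.

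Within 50 kb of a TSS, 4 of the 9 genes had a peak, beside 32.7% of all protein-coding genes (6591 of 20163, 95% Wilson interval 32.0 to 33.3%). At 10 kb, FOSB and FOSL1 had one, beside 12.6% of all genes. FOSB was counted there by an alternative TSS 7347 bp from its peak. At 100 kb, 8 of the 9 genes had one, beside 48.7%, and JUNB was the exception. With 9 genes, some of them close neighbours, these shares describe the list and were not tested.

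**Figure D4:**
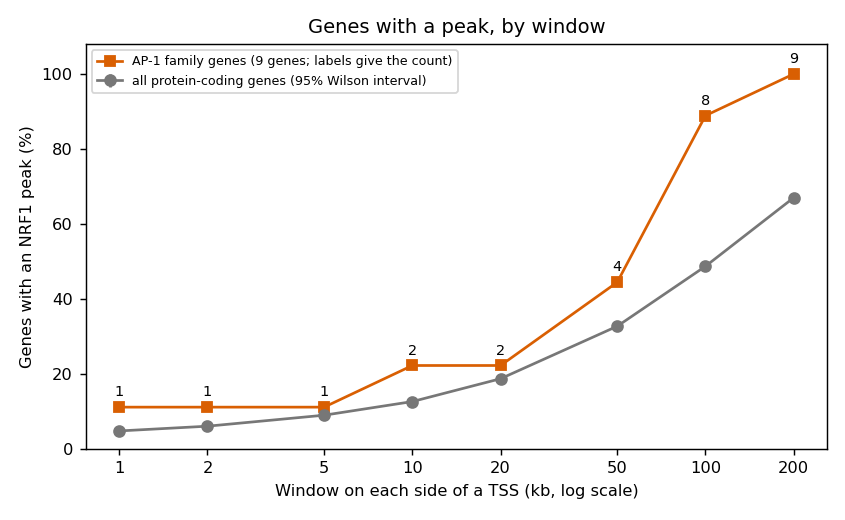
Share of genes with an NRF1 peak centre within a given window of a TSS (kb, log scale), for the 9 AP-1 family genes (squares, labelled with their number) and for all 20163 protein-coding genes (circles, with 95% Wilson intervals smaller than the symbols). Up to 20 kb at most 2 family genes have a peak, and the count goes from 4 at 50 kb to 8 at 100 kb.

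The genes without a peak in the window were examined for peaks up to 100 kb from a TSS. FOS, the founding FOS gene, had its nearest peak 67.5 kb upstream (score 55.19, rank 5098). A pair of peaks lay upstream of JUND, at 93.0 kb (score 145.01) and 98.6 kb (score 197.56), and both were nearest to GDF15, a stress-induced cytokine gene, at 157 and 1995 bp from its TSSs. ATF3, a stress-induced repressor and activator, had its nearest peak 79.2 kb from its most upstream TSS (score 83.81). For BATF3, which lies next to ATF3 on chromosome 1, the nearest peak was 74.9 kb upstream of its TSS (score 109.44) in intron 4 of NSL1. Apart from the peak 98.6 kb from JUND, which had a degenerate ARE only, each of these peaks held a full ARE. Over all peaks the share with a full ARE is 61.3%. In the FOS peak the full ARE lay 141 bp from the centre, and a palindrome outside an ARE lay 57 bp from it. Over the 3478 peaks with a full ARE, the upper quartile of the distance of the nearest one was 52.0 bp.

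JUNB, an AP-1 subunit gene of the JUN branch, had no peak within 100 kb. JUN also had 2 peaks far upstream, at 97.6 kb (score 144.46, rank 1538) and 99.5 kb (score 60.06), each with a full ARE and with JUN as the nearest protein-coding gene. The first of these had a higher score than the peak 29.7 kb downstream of JUN.

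The genes without a peak were not without motifs. Full AREs within 50 kb of a TSS numbered 5 at JUNB, 6 at JUND, 1 at FOS, 1 at ATF3 and 3 at BATF3, none of them in a peak because these genes had no peak in that window. At FOSB, 0 of 6 and at JUN 0 of 2 lay in a peak. At FOSL1 3 of 6 and at FOSL2 1 of 4 lay in a peak. Summed over the 9 genes, 4 of 34 full AREs (11.8%) were in peaks, beside 3915 of 53132 in the genome (7.37%). In this sum a site shared by overlapping windows, such as those of ATF3 and BATF3, would count once for each gene. The genome count includes regions far from genes.

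Palindromes were more numerous than full AREs near these genes. Of 162 distinct palindromes within 50 kb of the 9 genes, 6 lay in a peak (3.70%), beside 1.19% of all palindromes in the genome. That background includes regions far from genes, and the difference was not tested. Of the 6 palindromes in peaks, 3 were at FOSL1, 2 at FOSL2 and 1 at JUN. Of these 6, 4 were followed by GC on at least 1 strand and so were part of a full ARE. Outside the peaks 27 of 156 (17.3%) were followed by GC. In the genome the share was 11.2% of 459778 palindromes, and in all NRF1 peaks it was 70.0% of 5491.

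**Figure D5:**
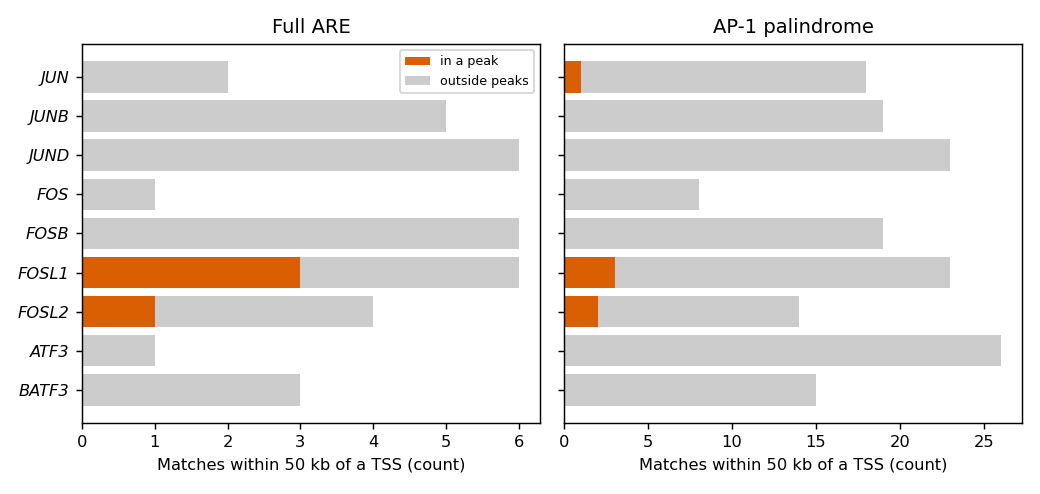
Number of full AREs (left) and AP-1 palindromes (right) within 50 kb of a TSS of each gene, divided into those inside an NRF1 peak (orange) and those outside (grey). Full AREs inside peaks occur at FOSL1 (3 of 6) and FOSL2 (1 of 4) alone, and the 5 genes with no peak in this window can have none.

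Motifs in the promoters themselves were read from RefSeq (GRCh38.p14), from 250 bases before to 50 after each gene start. The table held 7 of the 9 genes; BATF3 and FOSL1 were not among them. None of the 7 had a full ARE, which 0.977% of 35116 promoters hold. FOS had 1 degenerate ARE and JUND 2 (29.1% of promoters have at least 1 ARE of any form), FOSL2 had 1 palindrome (4.95%) and JUND 1 copy of TGACGTCA, the cAMP response element (1.85%). JUN, JUNB, FOSB and ATF3 had none of these motifs. None of these 7 genes had a peak centred within 2 kb of a GENCODE TSS.

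The wider AP-1 network was examined with 4 lists, whose counts within 50 kb stand beside the 32.7% of all protein-coding genes. Of 5 further dimer partners, 2 had a peak within 50 kb, JDP2, a repressor that pairs with JUN (score 159.07, full ARE, 10702 bp downstream of a TSS), and ATF7 (score 112.84). Of 8 genes of the JNK pathway, which phosphorylates JUN, 4 had one, with scores of at most 82.83, at the kinase gene MAP3K1. Of 8 other immediate-early genes 5 had one, the highest at EGR2 (score 302.16), but the nearest protein-coding gene to that peak was ADO. Of 10 textbook AP-1 target genes 4 had one, and the highest scores were 1008.48 at HMOX1, a heme-degrading enzyme gene also known as an ARE target (rank 10), and 391.29 at CCND1, which encodes cyclin D1. The latter peak lay 40794 bp downstream of a CCND1 TSS, and its nearest protein-coding TSS was that of LTO1. Within 2 kb of a TSS, only MAPK10 of the JNK pathway, named after its value was seen, and SPP1 of the targets had a peak. The share of all protein-coding genes in that window is the same 6.03%. The MAPK10 peak had a score of 51.17 (rank 5537), close to the lowest score of all peaks, 50.0. The highest-scoring SPP1 peak, which lay in that window, had a score of 242.91 (rank 649).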

How the data were processed

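The NRF1 ChIP library was prepared from HCT116 cells kept in 1 µM MG132 for 16 h. According to the submitters' processing notes and the methods, the authors aligned the single-end reads with Bowtie2 2.2.6 (genome build hg19) and used MACS 1.4.2 as the peak caller. Each deposited peak carries the authors' score, in this MACS release the −log10 p-value multiplied by 10. Peak calling settings, duplicate removal and the role of the input are not given in the sources used here. The depth is unknown, so the score ranks peaks within 1 library and has no replicate error.

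Peaks were assigned to genes by the distance of the peak centre from any TSS in GENCODE release 44 lifted to the same build, or by the authors' own gene annotation of the peak, from which only the gene symbol and position were used. Sequence was read from the genome of that build, and motifs were searched on both strands. Of 5683 peaks, 5673 on chromosomes 1 to 22, X and Y with no undetermined base entered motif shares. Flanks had the length of their peak and began 2 kb from its edge, on a side drawn at random. Shares over all peaks or genes carry 95% Wilson intervals, which cover counting error only. With 1 library no test between groups was made. The motif search was tested on random sequences with planted motifs, with those that gained a further ARE match set apart. A nearest-distance function was tested on random positions, but the assignment of peaks to genes was not tested. The tools were pysam 0.24.0, numpy 2.4.6 and scipy 1.17.1 under Python 3.11.15, with pandas 2.3.3.

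The genes and lists were chosen with earlier results of these data known. The genes named are the 9 family members, at most 3 genes per list of the AP-1 network (those with the highest-scoring peaks), MAPK10, added after its value was seen, and the gene whose coding TSS lies nearest to a described peak. Alternatives were other windows and TSS sets, distances from the peak edge, a score of at least 100, merged intervals, assignment to the nearest gene, the central 200 bp, the longer ARE and another gene background. The authors' array values were not used, and the peak nearest to JUNB is not reported here.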

Additional observations from a re-analysis of the deposited data

How the results depend on the processing

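With 1 library, the depth behind each score is unknown, and no result here can be checked in a replicate. The count of 6 peaks near AP-1 family genes was 2 in a window of 10 kb, 13 at 100 kb, 2 with a score of at least 100 and 3 when the gene had to own the nearest protein-coding TSS. The number of genes with a peak, 4, became 2 at 10 kb, 8 at 100 kb and 2 with a score of at least 100, which left FOSL1 and FOSL2. The median score of 66.5 became 204.04 at 10 kb and 222.98 with a score of at least 100. Peaks with an ARE numbered 4, against 2 at 10 kb, 11 at 100 kb, 2 with a score of at least 100 and 1 by the nearest protein-coding TSS. Peaks with the palindrome alone numbered 2, against 0 at 10 kb, 0 with a score of at least 100 and 1 with TSSs of protein-coding transcripts only. It was also 1 with the canonical TSS only, an alternative chosen after seeing the data, since the upstream FOSL2 peak then lies beyond 50 kb. The share of all genes with a peak within 50 kb, 32.7%, was 12.6% at 10 kb, 48.7% at 100 kb, 30.1% with TSSs of protein-coding transcripts, 17.6% with a score of at least 100, 16.6% by the nearest TSS, 27.3% with canonical TSSs and 24.6% over all annotated genes. FOSL1 alone had a peak within 2 kb of a GENCODE TSS under each alternative that applies to that count.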
